A study of Vitis vinifera with 42 samples.

Results

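Berries that had ripened inside opaque bags were compared with berries that had ripened in the light, both at harvest (E-L 38, the ripe-berry stage of the Eichhorn-Lorenz scale of grapevine development). The T1 berries of Vitis vinifera cv. Cabernet Sauvignon came from clusters bagged from 3 weeks after flowering (E-L 29) until harvest. The reference berries, T2, came from clusters left exposed on the vines (the light control, labelled CK). Each group had 3 RNA-Seq libraries, labelled A, B and C, from 3 biological replicates of deseeded berries, and every bag was opaque, of paper in layers, with a straw for ventilation. Another group at the same stage, T8, was bagged only around véraison, from E-L 35 to E-L 36, and then returned to light. All groups were of 1 cultivar in 1 vineyard and season, RNA came from whole deseeded berries in which skin and flesh are mixed, and the exclusion of light cannot be told apart from other effects of a closed bag. The features compared were the 17211 genes whose mean reached 1 FPKM (fragments normalised for transcript length and for the size of the library) in T1 or T2 at E-L 38, out of 28940 genes listed and 21902 genes tested across the 42 libraries of the series.

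Young grape berries are green and photosynthesize, and their chloroplasts lose most of this machinery as the berry ripens. Plants read light through phytochromes, cryptochromes and the UV-B receptor UVR8, whose signals converge on the bZIP transcription factor HY5 and its homologue HYH. HY5-type factors are known from Arabidopsis to activate genes of photosynthesis, photoprotection, DNA repair and flavonoid synthesis. In red grapes, anthocyanins colour the skin from véraison on through the MYBA factors and the glucosyltransferase UFGT, and flavonols, made by flavonol synthase (FLS), act as UV screens.

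The libraries of both groups were alike in their general features. Total FPKM lay between 608980 and 637323 in T1 libraries and between 621289 and 631761 in T2 libraries, and 21090 to 21259 genes were above 0 in T1 against 21169 to 21478 in T2. The 10 most abundant genes took 27.8 to 28.4% of the total in T1 and 25.8 to 30.1% in T2. Relative depth, read from the smallest steps of low FPKM values, differed by at most 0.126 on the log2 scale. The study lists the clean reads and mapped share of each library, which were not used here. The markers of red skin fitted the labelled tissue in part: VviMYBA2 stood at 97.8, 111 and 106 FPKM in T1 libraries and 114, 97.9 and 106 FPKM in T2 libraries, while VviMYBA1 stayed under 10 FPKM in every library of this stage. The 10 ripening-berry genes summed to 8081 to 8753 FPKM in T1 and 7347 to 8263 FPKM in T2. Seeds had been removed, yet the 14 seed tissue genes with a value (storage globulins, oleosins, late embryogenesis abundant proteins) summed to 240, 522 and 317 FPKM in T1 libraries A, B and C and to 223, 253 and 216 FPKM in T2 libraries A, B and C, so that T1 library B carried the highest seed signal and T2 library C the lowest.

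The bagged berries differed from the exposed ones at harvest in a small set of genes, most of them lower. With the study's 2-fold threshold and an adjusted p under 0.05 (limma on log2(FPKM + 1), Benjamini-Hochberg over all genes tested), 65 of the 17211 genes were lower in T1, which is 0.378% of them, and 9 were higher, which is 0.0523%. These are the differentially expressed genes (DEGs) below, and all fold changes are T1 over T2 on the log2(FPKM + 1) scale, which understates the change of low genes. Without the fold threshold, 113 genes (0.657%) were lower and 14 (0.0813%) higher. The median log2 fold change over all 17211 genes was -0.02, and 9492 of them (55.2%) had a negative one. In 64 of the 65 lower DEGs and 8 of the 9 higher DEGs, the 3 libraries of one group did not overlap with the 3 of the other. Over all 17211 genes, 1735 with a negative and 1018 with a positive fold change did not overlap. The DEGs were chosen on the same values, so their lack of overlap is a description. The lower DEGs were mostly modest in level: 23 of the 65 had a T1 mean under 1 FPKM and entered the comparison only through T2, and 4 were listed at 0 in all 3 T1 libraries. An FPKM listed at 0 can mean few reads rather than no transcript.

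**Figure D1:**
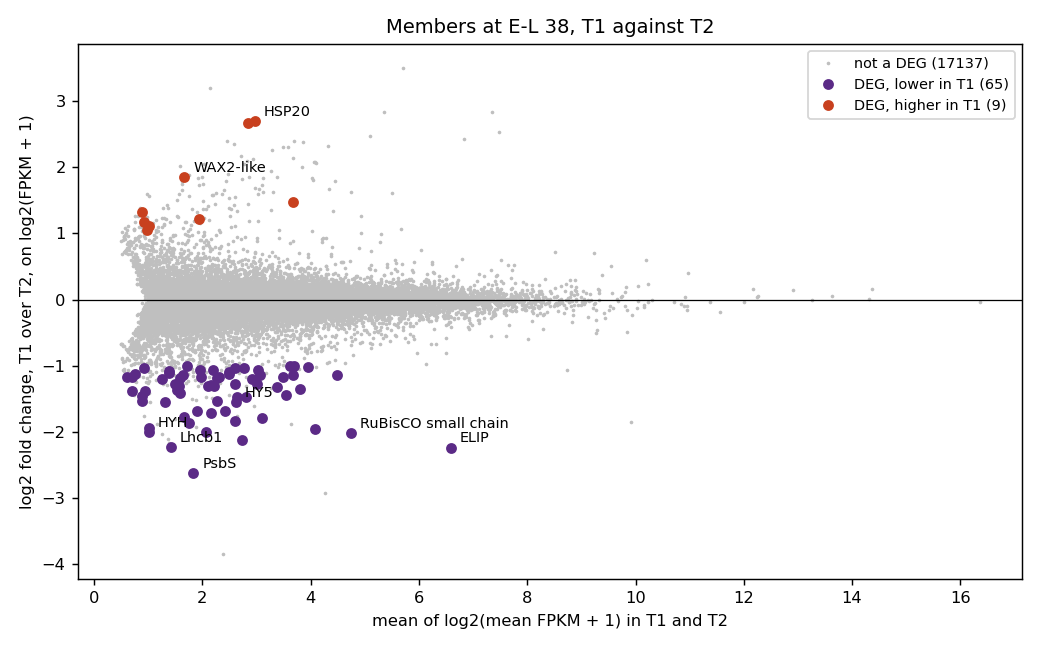
Each point is 1 of the 17211 genes, with its mean level over T1 and T2 at E-L 38 (log2(FPKM + 1)) on the x axis and its log2 fold change of T1 over T2 on the y axis. The 65 lower and 9 higher DEGs are coloured, and most genes lie close to the median of -0.02.

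The genes that protect photosystems from excess light showed the clearest change. PsbS, VIT_218s0001g02740, the photosystem II subunit that triggers the dissipation of excess light energy as heat, had 0.22, 0.43 and 0.65 FPKM in T1 libraries against 7.70, 7.70 and 7.99 FPKM in T2 libraries. All 3 T1 libraries were below 1 FPKM and no T2 library was below 7 FPKM. Its log2 fold change was -2.63 ± 0.18 (SE, n = 3 each, adjusted p = 2.08e-11), the largest decrease among the DEGs. The SE of each fold change comes from the fit to all 42 libraries, not from the 6 libraries compared. An early light-induced protein (ELIP), VIT_205s0020g04110, which binds pigments in thylakoids under light stress, was far more abundant. It had 46.5, 49.2 and 34.8 FPKM in T1 against 210, 194 and 219 FPKM in T2, a log2 fold change of -2.24 ± 0.29 (adjusted p = 1.13e-05). Violaxanthin de-epoxidase, VIT_204s0043g01010, the enzyme that makes the photoprotective pigment zeaxanthin, averaged 2.03 FPKM in T1 and 4.42 FPKM in T2. On the log2(FPKM + 1) scale it was lower without reaching the fold threshold (log2 fold change -0.83, adjusted p = 0.0132). Its adjusted p was 0.121 without T1 library B, 0.101 without T2 library A and 0.089 without T2 library C.

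In T8 berries, back in light since E-L 36, PsbS stood at 9.12, 9.54 and 8.11 FPKM and the ELIP at 181, 216 and 216 FPKM at harvest. For both genes the T8 values lay near those of T2 and apart from those of T1. The photoprotection list held 5 genes, of which 3 were lower and 0 higher at an adjusted p under 0.05, with a median log2 fold change of -1.23. The other 2 members did not pass the test. A second ELIP, VIT_214s0066g00275, had 0.59, 0.29 and 0 FPKM in T1 against 3.19, 2.26 and 0.93 FPKM in T2 (adjusted p = 0.141), and a gene like violaxanthin de-epoxidase, VIT_207s0031g01770, averaged 1.52 FPKM in T1 and 2.02 FPKM in T2 (adjusted p = 0.801). Summed FPKM of the 5 genes ran from 39.2 to 52.9 in T1 libraries and from 209 to 235 in T2 libraries, most of it from the ELIP.

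**Figure D2:**
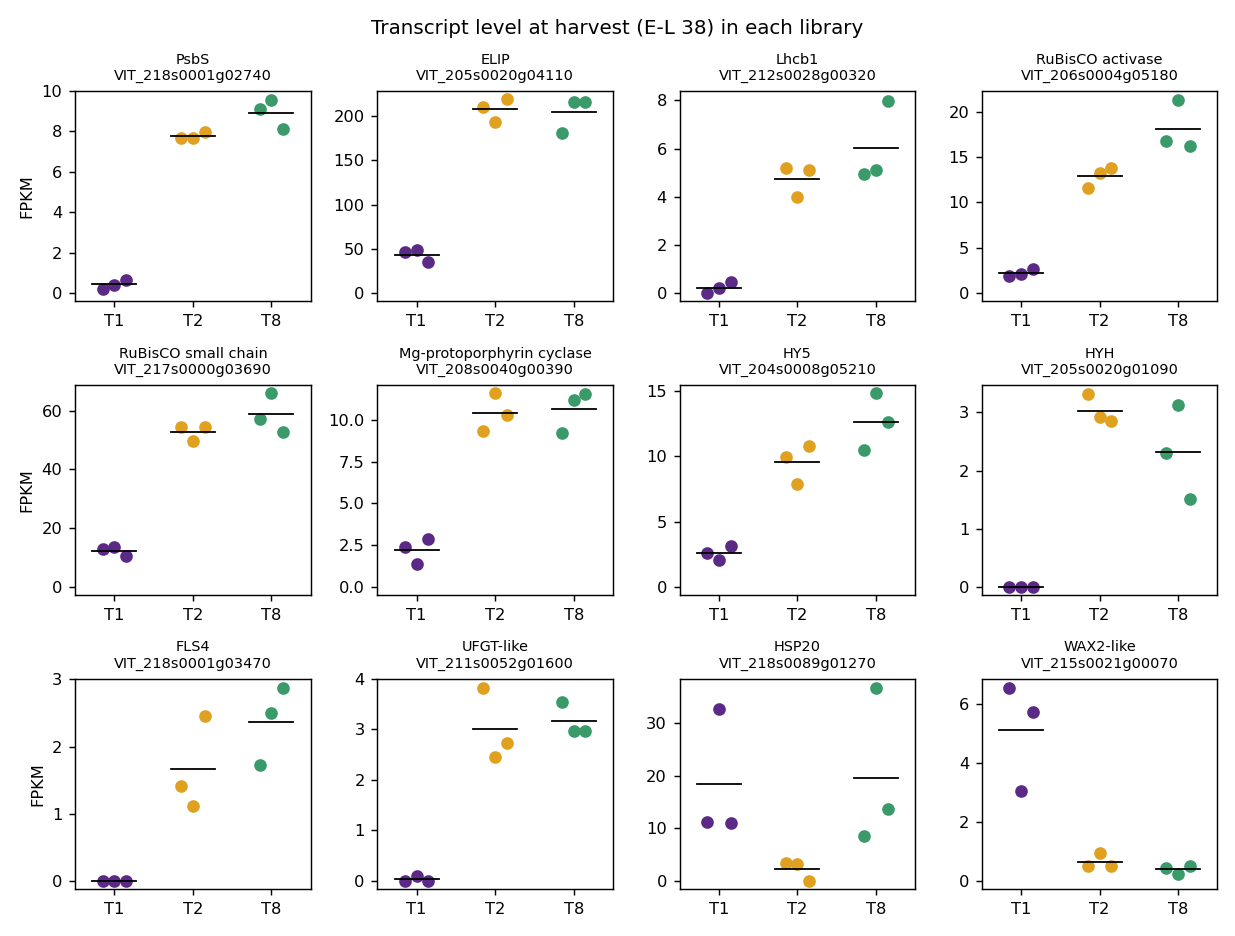
FPKM of 12 genes in each of the 3 T1, 3 T2 and 3 T8 libraries at E-L 38, 1 point per library with a bar at the group mean. PsbS, the ELIP, HYH and the UFGT-like gene VIT_211s0052g01600 separate T1 from both other groups. The HSP20 gene spreads widely within T1 and T8.

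Several subunits and antenna proteins of the photosystems were lower as well, although most members of this class did not pass the test. A light-harvesting chlorophyll a/b-binding protein of photosystem II (Lhcb1), VIT_212s0028g00320, had 0, 0.23 and 0.46 FPKM in T1 and 5.21, 3.97 and 5.09 FPKM in T2. The decrease was -2.24 ± 0.30 (adjusted p = 2.76e-05). The 10 kDa polypeptide of photosystem II, VIT_219s0027g00200, averaged 2.89 ± 0.61 FPKM in T1 and 8.40 ± 1.40 FPKM in T2 (SD), a log2 fold change of -1.28. Another antenna protein, Lhcb4, VIT_208s0007g02190, and a protein of the oxygen-evolving complex, VIT_212s0028g01080, fell by 1.08 and 1.01 on the log2 scale. Of the 59 photosystem and antenna genes with a value, 7 were lower and 0 higher (11.9%, against 0.657% of all 17211 genes), and 44 of the 59 had a negative fold change with a median of -0.29. The 7 became 3 to 9 over the alternative settings. Their summed FPKM was 228 to 264 in T1 libraries, 317 to 319 in T2 libraries and 259 to 341 in T8 libraries, so T1 did not overlap with T2 and did with T8.

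Electron transport genes followed with 3 lower of 19, none higher, and a median of -0.12. Ferredoxin-NADP reductase, VIT_204s0023g03510, which passes electrons on to NADPH, had 2.91, 3.51 and 3.38 FPKM in T1 and 7.59, 6.59 and 7.09 FPKM in T2 (log2 fold change -0.92 ± 0.14, adjusted p = 0.00017). A cytochrome b6f subunit, VIT_219s0014g03850, fell by 1.19 and an ATP synthase gamma chain, VIT_210s0116g01735, by 1.07 on the log2 scale. The last of these held in 6 of 12 alternative settings only. Its adjusted p of 0.0233 became 0.268 and 0.077 without T1 library B or C and 0.277 and 0.0806 without T2 library A or C.

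Carbon fixation was represented by 20 Calvin cycle genes, of which 5 were lower and 0 higher. The small subunit of RuBisCO, VIT_217s0000g03690, had 13.0, 13.5 and 10.4 FPKM in T1, against 54.3, 49.5 and 54.5 FPKM in T2. The lowest T2 value was above every T1 value by more than 3-fold, and the log2 fold change was -2.02 ± 0.18 (adjusted p = 1.26e-08). RuBisCO activase, VIT_206s0004g05180, which frees the enzyme of inhibitory sugar phosphates, had 1.89, 2.07 and 2.64 FPKM in T1 against 11.6, 13.3 and 13.8 FPKM in T2 (-2.12 ± 0.20, adjusted p = 3.62e-08). Phosphoribulokinase, VIT_202s0109g00080, which regenerates the CO2 acceptor, fell by 1.28, and the B subunit of chloroplast glyceraldehyde-3-phosphate dehydrogenase, VIT_218s0122g00960, by 0.94 on the log2 scale. A further 3 lower DEGs belong next to this class by their annotation. These were a class I fructose-bisphosphate aldolase assigned to the chloroplast, VIT_204s0023g03010 (-1.47), a mitochondrial serine hydroxymethyltransferase, an enzyme class of photorespiration, VIT_200s0211g00120 (-1.79), and VIT_201s0026g02480 (-1.32), whose GO terms name it a negative regulator of the Calvin cycle. The 20 Calvin cycle genes summed to 205 to 215 FPKM in T1, 280 to 290 FPKM in T2 and 287 to 319 FPKM in T8. Their median log2 fold change was only -0.11.

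Chlorophyll synthesis showed 3 lower genes of 24, with a median of -0.04, so the list as a whole lay close to all genes. Magnesium-protoporphyrin IX monomethyl ester cyclase, VIT_208s0040g00390, which closes the fifth ring of chlorophyll, had 2.40, 1.40 and 2.89 FPKM in T1 and 9.31, 11.6 and 10.3 FPKM in T2 (-1.84 ± 0.15, adjusted p = 3.46e-09). Geranylgeranyl reductase, VIT_217s0000g06280, which makes the phytyl tail, fell by 1.04, and the H subunit of magnesium chelatase, VIT_208s0007g08540, by 0.89 on the log2 scale. The last call was lost without library C of T1 (adjusted p = 0.102) or of T2 (0.0549). An oxygenase like PTC52 and pheophorbide a oxygenase, VIT_206s0004g00610, had 1.73, 2.15 and 1.73 FPKM in T1, against 5.74, 5.48 and 6.81 FPKM in T2 (-1.29, adjusted p = 7.33e-06). Of the 33 genes of carotenoid metabolism 0 were called by limma. At an unadjusted p under 0.05, 3 were higher (9.09%) and 5 lower (15.2%), against 2.93% and 5.96% of all 17211 genes. Over the wider GO classes, 23 of 393 thylakoid genes (5.85%) and 36 of 1795 chloroplast or thylakoid genes (2.01%) were lower, against 0 and 2 higher. The 2 GO classes overlap each other and the lists above.

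**Figure D3:**
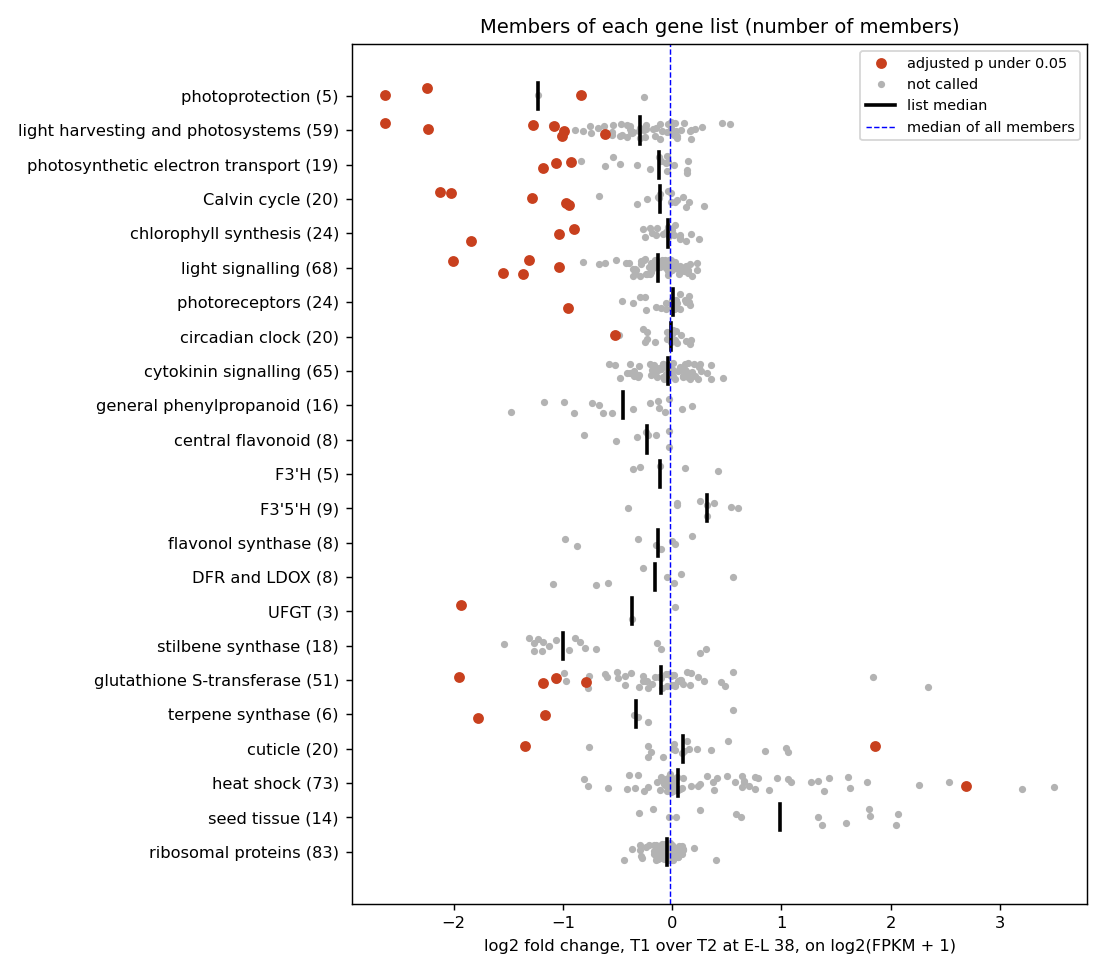
Log2 fold change of T1 over T2 at E-L 38 for each member of 23 gene lists, 1 point per gene, with the median of each list as a short line and the median over all 17211 genes as a dashed line. Photoprotection lies furthest to the negative side with a median of -1.23, stilbene synthases lie at -1.003 with 0 members called, and the cytokinin list lies near the dashed line.

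Among light signalling genes the DEGs included 2 of the 3 genes that the study lists as HY5 or HYH. HY5, VIT_204s0008g05210, had 2.58, 2.08 and 3.12 FPKM in T1 against 9.97, 7.87 and 10.8 FPKM in T2. The groups were apart by more than 4 FPKM, and the log2 fold change was -1.55 ± 0.24 (adjusted p = 0.000185). HYH, VIT_205s0020g01090, was listed at 0 in all 3 T1 libraries, against 3.31, 2.92 and 2.86 FPKM in T2 (adjusted p = 2.49e-06). The third listed gene, VIT_208s0040g00870, was far more abundant and showed no such difference, with 129, 115 and 126 FPKM in T1 and 122, 128 and 121 FPKM in T2 (log2 fold change -0.0008 ± 0.10, adjusted p = 1). In T8 berries HY5 stood at 10.5, 14.8 and 12.6 FPKM and HYH at 2.30, 3.13 and 1.52 FPKM. The names HY5 and HYH are those of the study, while the best database hits deposited with the 2 identifiers carry other names.

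A B-box zinc finger protein annotated as salt tolerance-like, VIT_205s0102g00750, a family that acts with HY5 in Arabidopsis, had 2.29, 2.10 and 1.45 FPKM in T1 and 6.64, 5.67 and 6.54 FPKM in T2 (-1.31 ± 0.20, adjusted p = 0.000185). A bHLH factor, VIT_201s0011g03720, fell by 1.36 and a gene like PIF3 (a bHLH repressor of light responses that phytochromes bind), VIT_217s0000g06930, by 1.03 on the log2 scale. Both were low, with T2 means of 3.69 and 1.72 FPKM. Their adjusted p was 0.0947 and 0.0554 with a pseudocount of 0.1, and 0.118 and 0.149 with the 6 libraries of T1 and T2 alone. In all, 5 of 68 light signalling genes were lower (7.35%, against 0.657% of all 17211 genes) and 0 higher. The median was -0.13, and 51 of the 68 were negative, against 55.2% of all genes.

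Photoreceptors hardly entered the set, with 1 lower of 24, 0 higher and a median of 0.01. The 1 was VIT_209s0002g05990, which the study lists as CRY2 and whose best hit is a (6-4) DNA photolyase, an enzyme that repairs UV lesions. It had 0.39, 0.48 and 0.87 FPKM in T1 and 2.58, 1.77 and 1.84 FPKM in T2 (-0.96 ± 0.19, adjusted p = 0.00596). The adjusted p was 0.0568 without T1 library A and 0.0782 without T2 library A. It was also the 1 lower member of the 8 photolyase and cryptochrome genes. In the circadian clock list, 1 of 20 was lower, a gene like PRR5, VIT_215s0048g02540, with 25.4, 24.2 and 23.7 FPKM in T1 and 36.4, 34.8 and 35.3 FPKM in T2. This was a small difference of -0.52 ± 0.09 with a narrow spread (adjusted p = 0.00159).

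Hormone signalling, by contrast, gave no call. The lists for abscisic acid (46 genes), auxin (73), brassinosteroid (43), cytokinin (65), ethylene (59), gibberellin (43), jasmonate (27) and salicylate (22) had 0 members higher and 0 lower by limma, with medians between -0.06 and 0.06. At an unadjusted p under 0.05, 18 of their 378 genes were higher and 19 lower (9.79%), against 8.88% of all 17211 genes. A pair of genes annotated as type-A response regulators like ARR9, VIT_211s0016g04270 and VIT_207s0005g04340, were lower DEGs (-1.41 and -1.04) outside the study's cytokinin list. The call of the first was lost without T1 library B (adjusted p = 0.0645), and that of the second without any of 5 libraries, T1 B or C or T2 A, B or C (0.091 to 0.226). Genes of cell wall loosening (69), sugar transport (35), ribosomal proteins (83), histones (46) and pathogenesis-related proteins (30) also had 0 calls. At an unadjusted p under 0.05, 3 of their 263 genes were higher (1.14%) and 17 lower (6.46%), against 2.93% and 5.96% of all 17211 genes.

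Of the flavonol synthases, the study's light-responsive gene VviFLS4 (VIT_218s0001g03470, chromosome 18) was lower in T1. It was listed at 0 in all 3 T1 libraries and had 1.41, 1.12 and 2.46 FPKM in T2 and 1.73, 2.50 and 2.87 FPKM in T8. The fitted log2 difference of T1 from T2 was -1.38 ± 0.27 (adjusted p = 0.00581). Without T2 library C the adjusted p was 0.0639, and with the 6 libraries of T1 and T2 alone it was 0.0973. The 0 was not limited to harvest: T1 libraries also stood at 0 in the stages E-L 35, 36 and 37, where T2 averaged 0.82, 1.68 and 6.55 FPKM. T8 libraries were at 0 at E-L 36, the end of their time in the bag, and averaged 4.17 FPKM at E-L 37, after it. The 300 bases just before the start of the study's cDNA are shown because FLS4 is the flavonol gene that was lower in T1 and its promoter was cloned by the study. The sequence is that of Cabernet Sauvignon, read 5′ to 3′, and the capitals mark the letters ACGT, the core to which bZIP factors such as HY5 are known to bind.
VviFLS4 promoter: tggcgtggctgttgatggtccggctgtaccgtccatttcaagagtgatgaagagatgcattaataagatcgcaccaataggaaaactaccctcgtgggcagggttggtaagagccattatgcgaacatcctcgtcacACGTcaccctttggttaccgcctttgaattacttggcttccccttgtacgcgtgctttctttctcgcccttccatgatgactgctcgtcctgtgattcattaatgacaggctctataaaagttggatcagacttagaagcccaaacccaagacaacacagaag
ACGT reads the same on both strands. The 300 bases held 1 match, which began 163 bases before the cDNA, and 1 of the 5 other windows of 300 bases further upstream held the motif as well. The match is a description of these letters only, and other promoters were not analysed here.

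The flavonol synthase list used here does not hold FLS4, although the study names that gene a flavonol synthase. The 8 members of the list had 0 calls (1 lower at an unadjusted p under 0.05) and a median of -0.13. One glucosyltransferase listed by the study as UFGT, VIT_211s0052g01600, was a lower DEG. It had 0, 0.10 and 0 FPKM in T1 against 3.81, 2.44 and 2.73 FPKM in T2, and 3.54, 2.96 and 2.96 FPKM in T8 (-1.94 ± 0.19 for T1 over T2, adjusted p = 3.62e-08). A second glucosyltransferase outside that list, VIT_212s0034g00080, annotated as like flavonoid 3-O-glucosyltransferase 6, had 1.74, 0.65 and 0.94 FPKM in T1 and 7.12, 7.40 and 7.28 FPKM in T2 (-2.003 ± 0.20, adjusted p = 5.06e-08). Neither is the main berry UFGT.

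Of the anthocyanin pathway itself no F3′5′H or central flavonoid gene was called at harvest, and the main UFGT and the chalcone synthase below stood at similar levels in T1 and T2. The main UFGT, VIT_216s0039g02230, which makes anthocyanins stable by adding glucose, had 61.6, 58.9 and 60.2 FPKM in T1 and 56.2, 56.5 and 64.7 FPKM in T2. The log2 fold change was 0.03 ± 0.17 (adjusted p = 1). Chalcone synthase VIT_205s0136g00260, the entry to the flavonoids, averaged 561 ± 2.3 FPKM in T1 and 572 ± 28 FPKM in T2 (adjusted p = 1). The flavonoid 3′,5′-hydroxylases (F3′5′H), which lead to the trihydroxylated anthocyanins, had 0 calls by limma among 9 genes, 0 also at an unadjusted p under 0.05, and a positive median of 0.32. The summed FPKM of the 9 was 439 to 471 in T1, 322 to 393 in T2 and 209 to 296 in T8, so the 3 groups did not overlap, with T1 on top. No test of this sum was made. The 9 genes lie mostly in 1 cluster of near copies, between which reads can be shared.

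Some of the pathway lay lower in T1 without passing the test. All 8 central flavonoid genes had negative fold changes (median -0.23), and one flavanone 3-hydroxylase, VIT_218s0001g14310, had 65.7, 70.7 and 66.0 FPKM in T1 against 136, 116 and 107 FPKM in T2, with no overlap (-0.81 ± 0.28, adjusted p = 0.334). The regulator VviMYBA1, VIT_202s0033g00410, had 0.38, 1.62 and 1.49 FPKM in T1, against 3.31, 5.05 and 7.23 FPKM in T2. The groups did not overlap, and the difference of -1.53 ± 0.39 had an adjusted p of 0.0638, reaching 0.363 over the alternative settings. The proanthocyanidin regulator VviMYBPA1, VIT_215s0046g00170, had 25.5, 17.3 and 33.7 FPKM in T1 and 57.5, 50.6 and 24.4 FPKM in T2, which overlapped (adjusted p = 0.748). VviMYBF1, VIT_207s0005g01210, the flavonol regulator, was listed at 0 in all libraries of both groups.

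The 18 stilbene synthases, which make resveratrol, had 0 calls by limma, with a median of -1.003 and 16 negative fold changes. At an unadjusted p under 0.05, 8 of the 18 were lower (44.4%), against 5.96% of all 17211 genes. They are near copies of each other, and their summed FPKM was 54.5, 40.4 and 56.8 in T1 libraries, 74.8, 84.3 and 85.0 in T2 libraries and 61.8, 81.1 and 63.7 in T8 libraries. General phenylpropanoid genes (16, median -0.45), flavonoid 3′-hydroxylases (5, median -0.11), dihydroflavonol reductases and leucoanthocyanidin dioxygenases (8, median -0.16), flavan-3-ol genes (2), cinnamoyl-CoA reductases (18) and the 11 phenolic regulators also had 0 calls. At an unadjusted p under 0.05, 3 general phenylpropanoid genes were lower (18.8%). Among the reductases and dioxygenases 1 was higher and 3 lower (37.5%), among the regulators 1 higher and 1 lower, and among the cinnamoyl-CoA reductases 2 higher, with 0 in the other lists. Of 10 cinnamyl alcohol dehydrogenases (CAD) 0 were called, and 0 had an unadjusted p under 0.05. The member that the study marks, VIT_204s0044g00210, had 0.77, 35.5 and 8.74 FPKM in T1 and 1.36, 3.52 and 0.32 FPKM in T2 (adjusted p = 0.824), with its highest value in T1 library B, the library with the highest seed signal.

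The same pathway genes did differ between T1 and T2 at the onset of ripening, in other libraries. At E-L 35, 8 of the 9 F3′5′H genes, 6 of 8 central flavonoid genes and 4 of 16 general phenylpropanoid genes were lower in T1 at an adjusted p under 0.05, where 5.4% of all 17211 genes were lower and 7.54% higher. The most abundant F3′5′H, VIT_206s0009g02830, had a log2 fold change of -3.29 then, against 0.32 at harvest. Chalcone synthase VIT_214s0068g00920 had -2.65 at E-L 35 against -0.03 at harvest, and phenylalanine ammonia-lyase VIT_206s0004g02620, the first enzyme of the phenylpropanoids, had -2.89 against -0.03. UFGT had -1.56 at E-L 35. Whether the effect differed between harvest and E-L 35 was itself tested with a contrast chosen after the data were seen. It was called for 8 of 9 F3′5′H, 4 of 16 general phenylpropanoid, 3 of 8 central flavonoid, 1 of 5 flavonoid 3′-hydroxylase and 1 of 3 UFGT genes, all towards a higher value at harvest. Over all 17211 genes, 232 (1.35%) were called in that direction and 552 (3.21%) in the other. Of the 126 genes in the photoprotection, photosystem, electron transport, Calvin cycle and chlorophyll lists, 4 were called towards a higher value at harvest and 2 towards a lower one. The chlorophyll cyclase VIT_208s0040g00390 was 1 of the 2, with -0.58 at E-L 35 and -1.84 at harvest (a difference of -1.27 ± 0.22, adjusted p = 0.000701). PsbS (-0.74, adjusted p = 0.095), the ELIP (-0.04, adjusted p = 0.993) and RuBisCO activase (-0.71, adjusted p = 0.181) were not called.

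**Figure D4:**
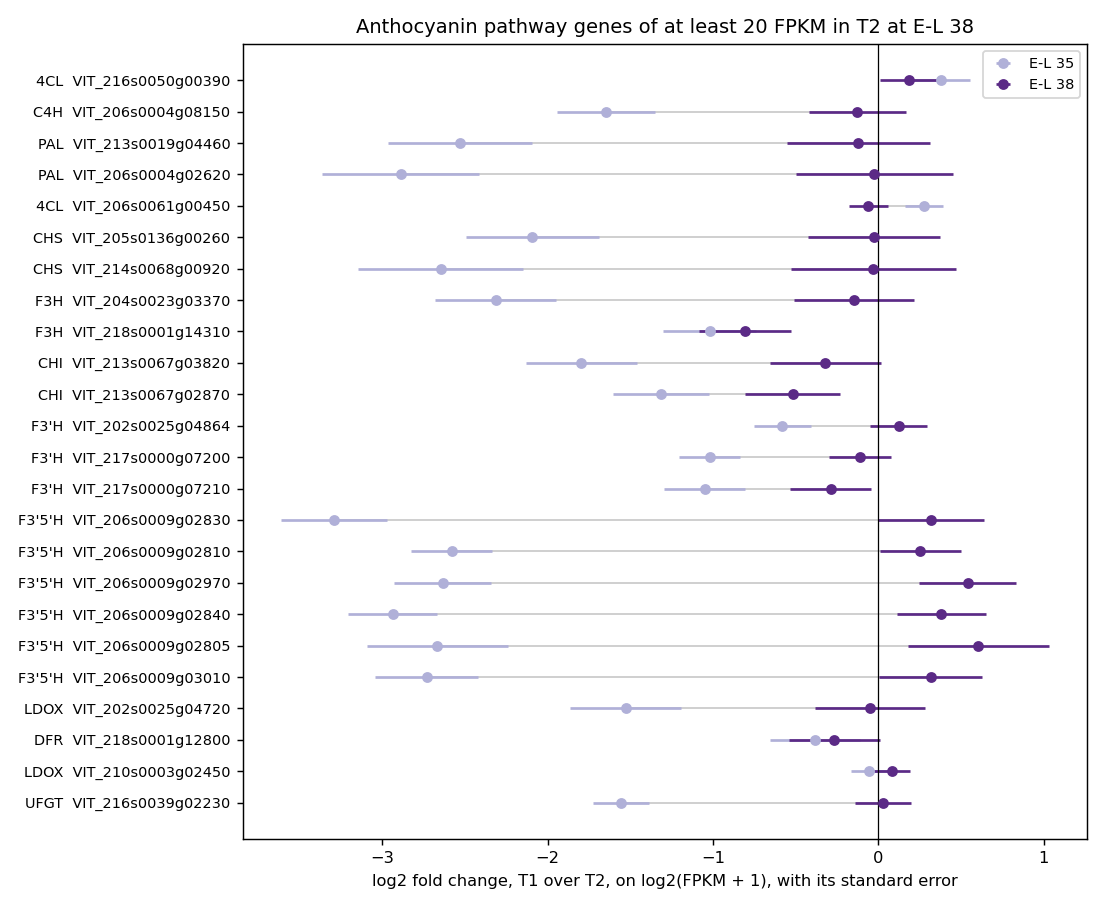
Log2 fold change of T1 over T2 (point, with SE as a bar) in the stages E-L 35 and E-L 38 for the 24 anthocyanin pathway genes with a T2 mean of at least 20 FPKM. The F3′5′H genes sit between -3.29 and -2.58 in the earlier stage and between 0.25 and 0.60 at harvest.

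Genes of detoxification and terpenes, and 1 gene of the cuticle list, were also among those lower in T1. A glutathione S-transferase (GST), VIT_201s0026g01340, had 7.62, 8.86 and 6.21 FPKM in T1 against 35.4, 32.9 and 27.7 FPKM in T2 (-1.95 ± 0.19, adjusted p = 5.06e-08). GSTs conjugate glutathione to reactive compounds, and some carry anthocyanins to the vacuole. Of 51 GST genes with a value, 4 were lower and 0 higher, 1 to 5 over the alternative settings. VIT_217s0000g02950 (-1.06) was called in 3 of 12 alternative settings only, and of the single libraries only T1 library A could be left out without losing the call (adjusted p of 0.108 to 0.256 for the others). In the terpene synthases, 2 of 6 members were lower. An ocimene or isoprene synthase, VIT_212s0134g00030, had 0.60, 0.69 and 0.78 FPKM in T1 against 5.23, 3.54 and 5.88 FPKM in T2 (-1.78 ± 0.20, adjusted p = 9.46e-07). Unlike PsbS, it was low in T8 as well, with 1.06, 2.60 and 1.45 FPKM, and T1 over T8 was not called (-0.64, adjusted p = 0.2). A linalool or nerolidol synthase, VIT_200s0271g00010, was listed at 0 in all T1 libraries and had 1.85, 0.47 and 1.71 FPKM in T2. Its adjusted p was 0.000492, and 0.238 with the 6 libraries of T1 and T2 alone.

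In the cuticle list 1 gene of 20 was lower and 1 higher, with a median of 0.097 and 6 of the 20 negative. The lower gene was an acyltransferase like WSD1, a wax ester synthase, VIT_215s0046g00490, with 7.49, 7.46 and 8.09 FPKM in T1 and 23.5, 18.9 and 21.1 FPKM in T2 (-1.35 ± 0.19). The higher gene, VIT_215s0021g00070, is like WAX2, a gene of cuticular alkane synthesis in Arabidopsis. It had 6.56, 3.05 and 5.73 FPKM in T1 and 0.49, 0.93 and 0.52 FPKM in T2, with T8 at 0.42, 0.24 and 0.52 FPKM (1.85 ± 0.37 for T1 over T2, adjusted p = 0.00762). The adjusted p was 0.0666 without T1 library A, 0.0557 without T1 library C and 0.0502 without T2 library A. A tonoplast aquaporin, VIT_209s0002g04020, was the 1 lower gene among 19 aquaporins (-0.73 ± 0.14), with an adjusted p of 0.0613 without T2 library B.

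The remaining lower DEGs named by size were of mixed function. A pentatricopeptide repeat protein, VIT_211s0016g03830, of the type that edits and processes organelle RNA, had 1.29, 0.89 and 1.05 FPKM in T1 and 5.01, 5.65 and 6.37 FPKM in T2 (-1.68 ± 0.16). A chloroplast phosphatidylglycerol desaturase by its GO terms, VIT_219s0090g00120, fell by 1.68, and a chloroplast protein with a ferredoxin-type iron-sulfur cluster, VIT_212s0028g01740, by 1.31 on the log2 scale. VIT_202s0025g01710, whose GO terms are chloroplast relocation and actin bundling, had 7.31, 5.23 and 5.72 FPKM in T1 and 17.97, 16.6 and 20.03 FPKM in T2 (-1.44 ± 0.28). A zinc-binding protein with the GO term chloroplast organization, VIT_213s0067g02560, fell by 1.53. A metal-binding protein, VIT_201s0011g04700 (-1.48), was low in T8 too, at 4.53, 4.20 and 5.02 FPKM. Its call was lost without any of the libraries but T2 library C (adjusted p of 0.0671 to 0.236). Of the 65 lower DEGs, 56 had an annotated function and 9 had none.

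The 9 genes higher in T1 formed no group by function, and 0 of the 9 held in every alternative setting, against 30 of the 65 lower ones. The largest increase was in a small heat shock protein (HSP20), VIT_218s0089g01270, a chaperone that keeps unfolded proteins soluble. It had 11.3, 32.7 and 11.02 FPKM in T1 and 3.45, 3.11 and 0 FPKM in T2 (2.70 ± 0.57, adjusted p = 0.0127), and 8.45, 36.6 and 13.7 FPKM in T8. Without T1 library B the adjusted p was 0.16, and without T2 library C it was 0.138. These are the libraries with the highest and the lowest seed signal. With the seed marker level as a covariate, a fit chosen after the data were seen, the log2 fold change was 2.60 (adjusted p = 0.03). The 73 heat shock genes summed to 4538, 5423 and 4345 FPKM in T1 libraries A, B and C and to 4212, 4501 and 3626 FPKM in T2 libraries, and no other member was called. A mannan endo-mannosidase by its GO terms, VIT_218s0089g00160, a cell wall enzyme, had 17.5, 25.2 and 15.1 FPKM in T1, against 4.05, 4.32 and 12.8 FPKM in T2 (1.47 ± 0.30, adjusted p = 0.00865). That p was 0.0994 without T1 library B, 0.129 without T2 library A and 0.102 without T2 library B. A cytochrome P450, VIT_202s0025g04880, had 14.1, 6.45 and 22.7 FPKM in T1 and 0.38, 6.57 and 0 FPKM in T2, the 1 higher DEG whose groups overlapped. Its call was lost without library A or C of either group (adjusted p of 0.0568 to 0.125). The rest were a gene like the chitin-binding receptor CEBiP, VIT_217s0000g03750 (1.22), a protein kinase, VIT_215s0045g00100 (1.33), a galacturonosyltransferase of pectin synthesis, VIT_205s0029g00520 (1.17), and a pair of neighbouring lipase-like esterases, VIT_218s0001g14780 (1.12) and VIT_218s0001g14810 (1.05). The first of these 5 was called with any 1 library left out, and each of the other 4 lost its call without at least 3 of the 6 libraries in turn. The esterases lie close together and may share reads.

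The lower genes were then followed through earlier stages, which share no library with E-L 38. The fit to all 42 libraries gives each gene the same SE at every stage, so a gene with a small SE is called more easily at each. The counts below are therefore a description and no independent check. Of the 65 genes, 31 were lower DEGs before véraison (E-L 31), where 3.2% of the 17211 genes were, and 31 at the onset of véraison (E-L 35), where 1.37% were. The E-L 36 libraries had 23 of the 65, against 0.343% of all genes, and the E-L 37 libraries 41, against 0.709%. The median log2 fold changes of the 65 in these 4 stages were -0.97, -0.98, -0.81 and -1.23, and 54, 58, 56 and 62 of the 65 were negative. The 9 higher genes showed no such run: in the same order of stages 2, 0, 1 and 0 of them were higher DEGs, where 1.85%, 0.598%, 0.198% and 0.0813% of all genes were.

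**Figure D5:**
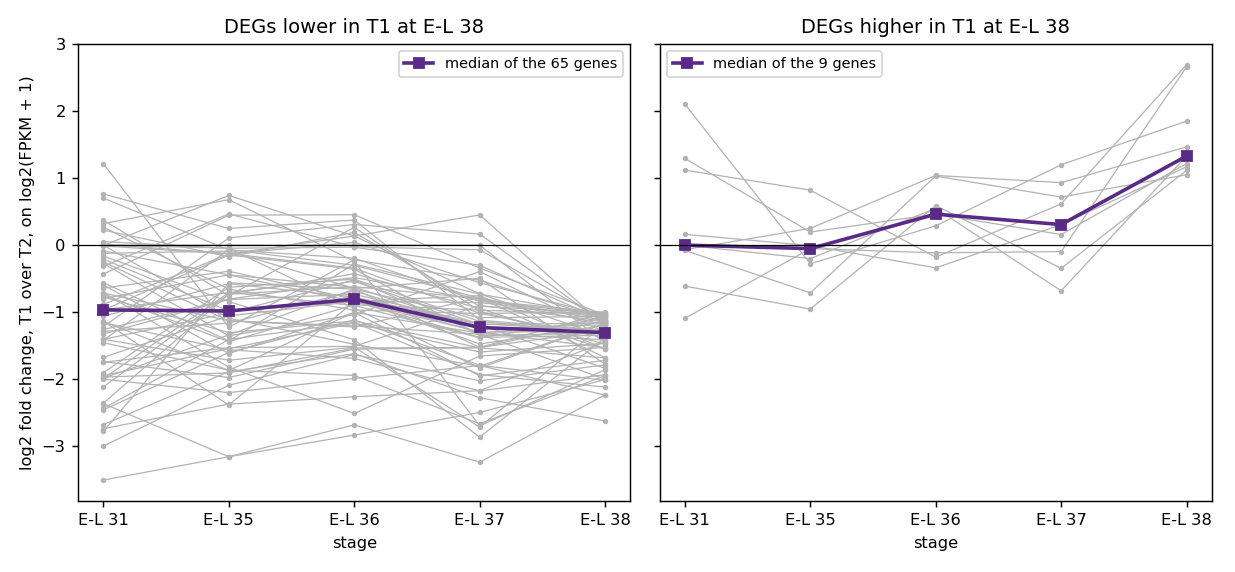
Log2 fold change of T1 over T2 in 5 stages, E-L 31 up to harvest, for the 65 lower and 9 higher DEGs of E-L 38, 1 line per gene, with the median of each set as a thick line. The genes were chosen at E-L 38, so that point is a description, while at the 4 earlier stages the median of the lower set lies between -1.23 and -0.81.

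The levels behind these changes followed different courses. PsbS, VIT_218s0001g02740, was lower at each later stage in both groups, and T1 stayed below T2 throughout. From E-L 31 over E-L 35, 36 and 37 to harvest it averaged 12.8, 11.4, 8.45, 3.22 and 0.43 FPKM in T1, against 90.1, 44.5, 28.3, 19.3 and 7.80 FPKM in T2 at the same stages. The ELIP, VIT_205s0020g04110, did not decline in that way. It averaged 21.8, 42.8, 67.2, 74.6 and 43.5 FPKM in T1 and 96.1, 201, 272, 262 and 207 FPKM in T2. HYH, VIT_205s0020g01090, averaged 1.29, 0.12, 0.63, 0.32 and 0 FPKM in T1 and 10.97, 8.997, 10.6, 6.53 and 3.03 FPKM in T2. HY5, VIT_204s0008g05210, averaged 16.1, 6.61, 11.7, 7.97 and 2.59 FPKM in T1 and 18.3, 13.9, 21.6, 14.5 and 9.54 FPKM in T2. Its log2 fold change was -0.21 at E-L 31 (adjusted p = 0.563) and -0.98 at E-L 35 (adjusted p = 0.00529), and the effect at harvest was not called as different from that at E-L 35 (adjusted p = 0.415). Whether the effect at E-L 38 differed from that at E-L 37 was tested directly for every gene. The limma contrast called 0 of the 17211 genes (0%) at an adjusted p under 0.05, the smallest being 0.122, while 1556 of the 21902 genes tested (7.1%) had an unadjusted p under 0.05. With a pseudocount of 0.1 it called 3.

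Berries re-exposed after véraison give a second view of the same T1 libraries. T1 against T8 at harvest gave 74 lower (0.43%) and 8 higher DEGs (0.0465%), while T8 against T2 gave 3 lower (0.0174%) and 6 higher (0.0349%). For the 65 genes lower in T1 than in T2, the median log2 fold change was -1.31 for T1 over T2, -1.19 for T1 over T8 and -0.10 for T8 over T2. These 3 comparisons share libraries, so the values stand side by side as a description. T8 values near those of T2 were seen for RuBisCO small subunit, VIT_217s0000g03690, with 57.2, 66.0 and 52.7 FPKM, and for the cyclase VIT_208s0040g00390, with 9.23, 11.2 and 11.5 FPKM. In VIT_215s0046g00490, the gene like WSD1, T8 lay between T1 and T2 at 16.3, 16.9 and 11.95 FPKM.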

How the data were processed

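The authors aligned the RNA-Seq reads with Bowtie (Bowtie2 2.2.5 in the submitters' processing notes) to the PN40024 grapevine genome, version 2, and deposited FPKM values per gene, with annotation, for 42 libraries in 14 groups of 3. The counting tool is not given in the sources used here. FPKM values are no counts, so log2(FPKM + 1) was fitted with limma 3.58.1 in R 4.3.3 (1 mean per group, mean-variance trend, 28 residual degrees of freedom), two-sided, over the 21902 genes whose mean reached 1 FPKM in any group. The study's test, NOISeq, was not run, and its 2-fold threshold was kept. Because replicates of 1 vineyard and season were used, p-values measure the spread between these samples. Tables and figures were made with Python 3.11.15, pandas 2.3.3, numpy 2.4.6 and matplotlib 3.10.9, and the fit was tested on simulated data.

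Lists came from the study's gene tables (1171 identifiers, all 1171 found) or from words in the deposited annotation (22802 of 28940 genes annotated). Their spellings were adjusted after the annotation was seen. The genes compared and the lists were chosen with earlier results of these data known. The genes named were up to 20 decreases and 10 increases largest in size (annotated, at least 5 FPKM in a group, no overlap), the study's light and phenolic genes, and up to 4 members of each list by adjusted p. Further DEGs, pathway members of E-L 35 and the second ELIP were named after their values were seen. Same-letter libraries of T1 and T2 did not deviate together (r of -0.06, 0.10 and -0.07), so letters were not treated as pairs. For T1 and T8 the same-letter r were 0.24, 0.19 and -0.04, and those of unlike letters ran from -0.27 to 0.10. The E-L 38 against E-L 35 contrast and a fit with the seed marker level as a covariate were chosen after the data were seen. The alternative settings, 12 for each gene, included another pseudocount, no filter, another scaling, a replicate block, the 6 libraries alone and each library left out.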

Additional observations from a re-analysis of the deposited data

Results flagged for a closer look

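The T1 effect at harvest (E-L 38) was set against the T1 effect at E-L 35, in other libraries, with a limma contrast chosen after the data were seen, and 26 phenolic and light genes and 21 others of the genes named differed at an adjusted p under 0.05. Values are the E-L 38 effect minus the E-L 35 effect on the log2 scale, so a positive one means that T1 stood higher relative to T2 at harvest. Over all 17211 genes, 1.35% differed upward and 3.21% downward.

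Among the F3′5′H genes the difference was 3.27 for VIT_206s0009g02805, 2.83 for VIT_206s0009g02810, 3.61 for VIT_206s0009g02830, 3.32 for VIT_206s0009g02840, 1.90 for VIT_206s0009g02920, 3.17 for VIT_206s0009g02970, 2.09 for VIT_206s0009g03000 and 3.05 for VIT_206s0009g03010. In the upstream steps it was 2.86 and 2.41 for the phenylalanine ammonia-lyases VIT_206s0004g02620 and VIT_213s0019g04460, 1.52 for the cinnamate 4-hydroxylase VIT_206s0004g08150, 1.29 for the 4-coumarate ligase VIT_216s0039g02040, 2.07 and 2.62 for the chalcone synthases VIT_205s0136g00260 and VIT_214s0068g00920 and 2.17 for the flavanone 3-hydroxylase VIT_204s0023g03370. It was 0.91 for the flavonoid 3′-hydroxylase VIT_217s0000g07200 and 1.58 for UFGT VIT_216s0039g02230.

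A flavonol synthase, VIT_202s0012g00450, went the other way with -1.65, having 0.99, 0.49 and 1.32 FPKM in T1 and 3.58, 2.59 and 1.56 FPKM in T2 at harvest. So did VIT_216s0098g00850, of the flavonol glycosylation list, with -1.12.

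Of the light genes, HYH VIT_205s0020g01090 had 1.15. Its T1 mean was 0 FPKM at harvest and 0.12 FPKM at E-L 35, at or near the floor in both, while its T2 mean was 3.03 FPKM at harvest and 8.997 FPKM at E-L 35, so the value reflects the T2 level and shows no change of T1. The DNA photolyase VIT_204s0008g02670 had 1.63, with T1 means of 0.58 and 0.56 FPKM and T2 means of 2.09 and 8.22 FPKM at the same stages, and the same holds there. Negative differences were found for VIT_200s0125g00050 (-1.50), VIT_201s0011g03720 (-1.23), VIT_205s0102g00750 (-1.17), VIT_217s0000g06930 (-0.96) and VIT_217s0000g05370 (-0.72). Of these, VIT_201s0011g03720, VIT_205s0102g00750 and VIT_217s0000g06930 were lower DEGs at E-L 38, an effect that enters the difference, so their values are a description. At E-L 35 VIT_201s0011g03720 averaged 0.15 FPKM in T1 and 0.27 FPKM in T2. VIT_217s0000g06930 averaged 0.05 FPKM in T1 and 0.1 FPKM in T2 at that stage, so both genes were near the floor in both groups.

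The other 21 genes were mostly chosen as called at E-L 38, and that effect enters the difference, so their values are a description. A value above 0 was found for 8. It was 1.04 for the gene like WSD1 (VIT_215s0046g00490), 2.13 for the gene like WAX2 (VIT_215s0021g00070), 2.72 for the cytochrome P450 VIT_202s0025g04880, 1.02 for the gene like CEBiP (VIT_217s0000g03750), 1.53 for the kinase VIT_215s0045g00100, 2.07 and 1.76 for the esterases VIT_218s0001g14780 and VIT_218s0001g14810, and 0.89 for VIT_219s0140g00210. A value below 0 was found for 13, among them -1.27 for the chlorophyll cyclase VIT_208s0040g00390, -1.69 for the ocimene or isoprene synthase VIT_212s0134g00030, -1.06 for the aquaporin VIT_209s0002g04020, -1.29 for the GST VIT_205s0049g01090 and -1.49 for the gene like ARR9, VIT_207s0005g04340. The rest were VIT_200s0317g00140 (-1.09), VIT_203s0017g01630 (-1.46), VIT_203s0091g00160 (-2.54), VIT_204s0023g02900 (-1.53), VIT_205s0062g00480 (-1.95), VIT_206s0009g01140 (-1.12), VIT_209s0096g00520 (-1.09) and VIT_212s0057g01430 (-1.60). VIT_203s0017g01630 had 3.66, 3.48 and 0 FPKM in T2 at harvest and 0 FPKM in all T1 and T8 libraries of that stage, so its groups overlapped. For T1 over T2 at harvest its adjusted p was 0.433 with the 6 libraries alone. Several of the 21 stood near 0 FPKM in both groups at E-L 35, the isoprene synthase with 0.03 FPKM in T1 and 0.09 FPKM in T2 among them.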

How the results depend on the processing

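With a pseudocount of 0.1 in place of 1, T1 against T2 gave 19 higher and 136 lower DEGs, T1 against T8 gave 21 and 194, and the E-L 38 against E-L 37 contrast 3. The 6 libraries alone gave 1 higher and 42 lower DEGs, of which 37 were among the 65, and the absence of a fold threshold 14 and 113. Leaving out 1 library gave 5 to 13 higher and 52 to 61 lower DEGs for T1 against T2, 7 to 11 and 55 to 77 for T1 against T8, and 0 to 2 genes for the E-L 38 against E-L 37 contrast. The 5 came without T2 library B of E-L 38. Counts stayed within 1.5 times of the main ones with no filter (9 and 63), median-of-ratios scaling (9 and 61), adjustment over the 17211 genes alone (9 and 67), no mean-variance trend (9 and 64) and the seed marker level as a covariate (8 and 60). No direction reversed. By gene, 30 of 65 lower and 0 of 9 higher DEGs were called in all 12 settings.

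The replicate block gave 9 higher and 65 lower DEGs for T1 against T2, 64 of the 65 lower ones shared with the fit without it (VIT_217s0000g02950 had an adjusted p of 0.0643 with the block), 8 and 71 for T1 against T8, and 0 genes for the contrast of stages.

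Libraries numbered 3 per group, and low FPKM values move with few reads, so a gene near 1 FPKM is the least certain here.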

Other observations

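Beside the genes called, 247 genes differed by at least 2-fold between T1 and T2 at harvest without passing the test, 142 higher and 105 lower in T1. In 111 of them the groups did not overlap, as in 1735 genes with a negative and 1018 with a positive fold change over all 17211. Of the 142 higher ones, 81 had their highest T1 value in library B and their lowest T2 value in library C.

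Some of these genes were abundant, and they are named here after their values were seen. VIT_202s0025g04330, with the GO term defense response, had 431, 490 and 579 FPKM in T1, 2313, 1936 and 1273 FPKM in T2 and 2143, 836 and 735 FPKM in T8 (log2 fold change of T1 over T2 -1.85 ± 0.65, adjusted p = 0.353). A GST like parC, VIT_219s0015g02880, had 296, 285 and 280 FPKM in T1 and 817, 663 and 397 FPKM in T2 (-1.06 ± 0.40, adjusted p = 0.422). An HSP20 gene, VIT_204s0008g01610, had 30.3, 318 and 92.2 FPKM in T1 and 16.3, 36.4 and 0 FPKM in T2 (3.50 ± 1.97, adjusted p = 0.787).

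Of the 14 seed tissue genes 7 were at least 2-fold higher in T1, and in all 7 library B was the highest of T1 and library C the lowest of T2, with 0 called. T8 libraries A, B and C summed to 287, 504 and 350 FPKM for the 14 genes, with library B highest there too. Of the 73 heat shock genes, 14 were at least 2-fold higher in T1 and 0 as much lower, and in 12 of the 14 library C was the lowest of T2.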
